A study of Bos taurus with 18 samples.

Results

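The importin alpha family comprises the adaptor proteins that pick up cargo for the cell nucleus. Its 7 genes KPNA1 to KPNA7, together with KPNB1, the gene of the importin beta that works with them, were followed through bovine oocytes and preimplantation embryos. The genes were chosen by name, with earlier results of these data known. All 8 were found among the 21668 genes of the expression table and passed the filter on genes with few reads. An importin alpha binds the classical nuclear localisation signal of a cargo protein and joins importin beta, which carries the complex through the nuclear pore. Inside the nucleus the small GTPase Ran, in its GTP form, takes the complex apart, and CSE1L returns the importin alpha to the cytoplasm. KPNA7 is known as the member enriched in oocytes and early embryos and is closest in sequence to KPNA2. KPNA3 and KPNA4 form another branch of the family, and KPNA1, KPNA5 and KPNA6 the last.

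RNA was sequenced from pools of 10 oocytes or embryos, with 3 libraries at every stage. The 6 stages ran from the immature oocyte with its germinal vesicle (GV) and the mature oocyte at metaphase II (MII, matured in vitro) to embryos made by in vitro fertilisation that had reached 4 cells, 8 cells, 16 cells or the blastocyst. Denuded oocytes were of the German Simmental breed, while the embryos, labelled German Simmental x Brahman, had a sire of the other breed. Breed and stage therefore cannot be told apart between MII and 4-cell. The same holds between blastocyst and GV and in the test over all 6 stages, which also set oocytes against embryos. The labels do not say whether pools came from separate animals or cultures, so p-values measure the spread between pools, which may be partly technical.

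Levels below are scaled counts, which are numbers of reads divided by the library's size factor. They express each gene against the rest of its library, and not an amount per embryo. In whole oocytes and embryos, fewer cells of a type and less RNA per cell cannot be told apart. Differences are those between stage means of the deposited variance-stabilised values, which come close to log2 fold changes where reads are many and are smaller than them where reads are few. They are given ± SE with adjusted p-values from limma (Benjamini-Hochberg over the 17138 genes tested). A gene "rose" or "fell" where the adjusted p was under 0.05.

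The libraries held 2438473 (16-cell replicate 2) to 11971840 reads in genes (4-cell replicate 2). Summed levels of marker genes followed the stage labels. The summed level of 9 oocyte genes was 70350 to 104600 scaled counts in oocytes and 92.93 to 178.6 in blastocysts, that of 4 genes of the activated embryo was at most 50.63 up to the 4-cell stage and 18930 to 23570 at the 8-cell stage, and that of 5 trophectoderm genes reached 20600 to 49530 in blastocysts. Most of the last sum came from KRT8 and KRT18. CDX2, of the same list, did not follow the stages, with means of 145 at 8-cell, 3.76 at 16-cell and 144 in blastocysts. It was not called between blastocyst and GV. Among 16 cumulus and granulosa genes, FOXL2, LHCGR and TNFAIP6 were at 0 reads in GV and FOXL2 and FSHR in MII. GV replicate 3 had more of other granulosa genes than GV replicates 1 and 2, with 118.1 scaled counts of FST against 0.948 and 4.945, 94.62 of FSHR against 0.948 and 2.119 and 90.95 of INHA against 0 and 5.652. That list summed to 2892 to 4275 in oocyte libraries, most of it from STAR, VCAN and HAS2. The 8-cell libraries were spread, with first principal component scores of -21.9, -68.9 and 20.5 in replicates 1 to 3. The 4-cell libraries were at -123.8 to -114.1. Of the 8-cell libraries, 8-cell replicate 2 lay nearest to them, and its oocyte marker sum was 70180 against 43720 and 34290. Its sum of activated embryo genes, 18930, was the lowest of its stage but far above that of every 4-cell library. Where this library moves a limma difference of a member given below by over 1.5 times, the value without it is given too.

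KPNA7 RNA was abundant from the GV oocyte to the 8-cell embryo, with no change called, fell at the 16-cell stage and was down to a few reads in blastocysts. Replicates 1 to 3 had 23493, 22364 and 23394 scaled counts in GV oocytes and 34602, 37371 and 22656 in MII oocytes. They had 28526, 25238 and 25544 at 4 cells and 29349, 42881 and 24572 at 8 cells. The MII libraries overlapped with those of each of the other 3 stages and the 4-cell with the 8-cell ones, while all GV libraries lay below all 4-cell and 8-cell libraries. The highest of their libraries was 8-cell replicate 2. The 16-cell embryos held 4188, 3092 and 1205 scaled counts, and the blastocysts 8.665, 13.15 and 9.68, which rest on 13, 12 and 10 reads. Every 16-cell library thus lay below every earlier library and above every blastocyst library. In order of stage means, the 8-cell, MII and 4-cell stages were not separated from their neighbours by their spread, GV lay just under the 4-cell libraries, and the 16-cell and blastocyst stages were separated from all others.

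**Figure D1:**
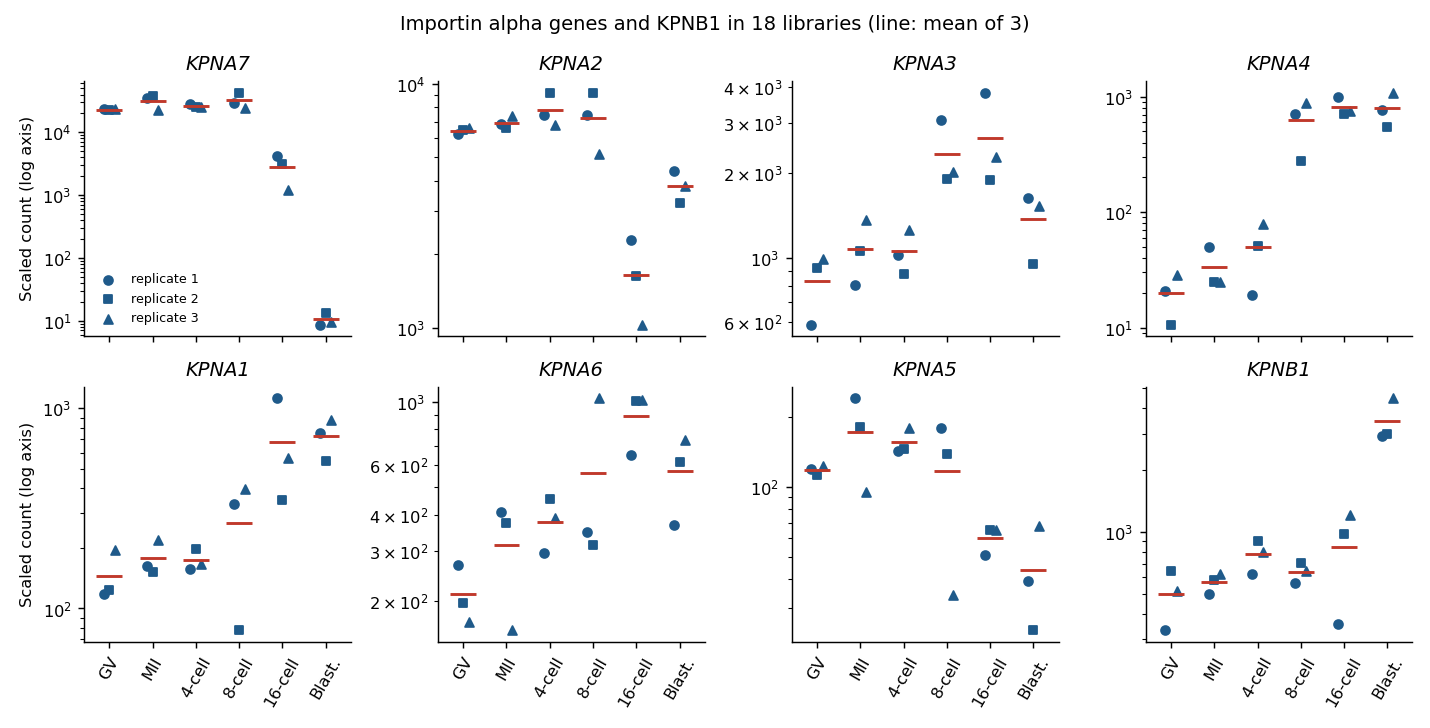
Scaled counts (log axis) of the 8 genes in each of the 18 libraries by stage, with 1 panel per gene, each with its own axis range, symbols for replicates and lines for stage means. KPNA7 stays between 22364 and 42881 up to the 8-cell stage and is at 8.665 to 13.15 in blastocysts, while KPNA4 goes from 10.6 to 28.6 in GV oocytes to 549.9 to 1084 in blastocysts.

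Up to the 8-cell stage no change of KPNA7 was called. It differed by 0.42 ± 0.34 between MII and GV (95% interval -0.29 to 1.12, limma adjusted p = 0.9), by -0.22 ± 0.34 between 4-cell and MII (-0.93 to 0.48, adjusted p = 1) and by 0.25 ± 0.34 between 8-cell and 4-cell (-0.45 to 0.95, adjusted p = 0.73). The last of these was 0.02 without 8-cell replicate 2 and 0.43 without 8-cell replicate 3. KPNA7 then fell by 3.65 ± 0.34 from 8-cell to 16-cell (limma adjusted p = 9e-07), an 11.4-fold lower mean. Without 8-cell replicate 2 the difference was -3.42 (limma adjusted p = 1.18e-05). From 16-cell to blastocyst it fell by 7.45 ± 0.34 (limma adjusted p = 4.1e-12), a 269-fold lower mean. Blastocysts were 2200-fold lower than GV oocytes (difference -10.65 ± 0.34, limma adjusted p = 9e-15). The range between the highest and lowest stage mean of KPNA7, 11.1, was wider than in 99.9% of the genes tested. The 9 oocyte marker genes shared this, at 99.4% (BMP15 and FIGLA) to 100% (OOSP1).

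KPNA2, the relative of KPNA7 that is most familiar from dividing cells, was also high in oocytes and fell at the 16-cell stage, but it came back in the blastocyst. The 16-cell libraries had 2300, 1626 and 1030 scaled counts, after 7473, 9145 and 5167 in 8-cell embryos, and the blastocysts had 4404, 3237 and 3824. GV oocytes (6211, 6474 and 6570), MII oocytes (6834, 6591 and 7351) and 4-cell embryos (7455, 9202 and 6805) lay in a narrow band. All 16-cell libraries were below all others, and all blastocyst libraries below all GV libraries. KPNA2 fell by 2.17 ± 0.27 from 8-cell to 16-cell (limma adjusted p = 1.2e-05, 4.4-fold lower) and rose by 1.27 ± 0.27 to the blastocyst (adjusted p = 0.0011, 2.31-fold). Of these calls, the rise was lost when only the 6 libraries of both stages entered the fit (limma adjusted p = 0.0614) or library medians were set equal (0.085). In both falling genes, 16-cell replicate 3 had the lowest level.

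KPNA4, an adaptor of the branch it shares with KPNA3, went from few reads to a much higher level at the 8-cell stage. Its libraries held 20.86, 10.6 and 28.6 scaled counts in GV oocytes, 49.54, 25.03 and 24.89 in MII oocytes and 19.13, 50.79 and 78.36 in 4-cell embryos. At the 8-cell stage they held 709.4, 278.7 and 878, so that no 8-cell library overlapped with an earlier one. The lowest of these was 8-cell replicate 2. KPNA4 rose by 3.57 ± 0.55 from 4-cell to 8-cell (limma adjusted p = 9.5e-05), to a 12.6-fold higher mean, and by 4.07 without 8-cell replicate 2 (limma adjusted p = 3.52e-05). No later change between neighbouring stages was called, with 995.5, 705.9 and 748 at the 16-cell stage and 763.8, 549.9 and 1084 in blastocysts, and the libraries of these 3 stages overlapped.

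KPNA3 was present throughout and highest at the 8-cell and 16-cell stages. Its scaled counts were 1032, 882 and 1260 at the 4-cell stage, 3073, 1908 and 2013 at the 8-cell stage, 3827, 1880 and 2266 at the 16-cell stage and 1633, 958.5 and 1530 in blastocysts. The 8-cell libraries did not overlap with the 4-cell or blastocyst ones, and they did overlap with the 16-cell ones. Oocytes had 584.9 to 993.1 in GV and 808.8 to 1365 in MII. KPNA3 rose by 1.12 ± 0.33 from 4-cell to 8-cell (limma adjusted p = 0.029, 2.2-fold) and fell by 0.92 ± 0.33 from 16-cell to blastocyst (adjusted p = 0.04, 1.93-fold lower). The rise was lost without 4-cell replicate 1, 4-cell replicate 2 or 8-cell replicate 1 (limma adjusted p = 0.0852, 0.118 and 0.135). The fall was lost without 16-cell replicate 1, Blastocyst replicate 2 or Blastocyst replicate 3 (limma adjusted p = 0.196, 0.18 and 0.0534). Both calls were also lost with only the libraries of both stages (limma adjusted p = 0.0737 and 0.151) or without the variance trend (0.0873 and 0.0977). Setting library medians equal lost the rise (0.205). Array weights (0.182) or quantile normalization (0.0702) lost the fall.

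In the branch of KPNA1, KPNA5 and KPNA6, KPNA1 rose at the 16-cell stage, and no change of KPNA5 or KPNA6 between neighbouring stages was called. KPNA1 had 332.9, 77.88 and 395 scaled counts at the 8-cell stage, 1125, 347.3 and 562.4 at the 16-cell stage and 755.2, 544.4 and 879.9 in blastocysts, against 118.5 to 220.6 in all oocyte and 4-cell libraries. The 8-cell and 16-cell libraries overlapped, and the lowest 8-cell value was again that of replicate 2. KPNA1 rose by 1.45 ± 0.52 from 8-cell to 16-cell (limma adjusted p = 0.038, 2.52-fold). That call was lost without 8-cell replicate 2 (0.73, limma adjusted p = 0.255), 16-cell replicate 1 (1.00, 0.17) or 16-cell replicate 3 (0.0649), and when only the libraries of both stages entered the fit (0.302). It was also lost without the variance trend (limma adjusted p = 0.0595), with array weights (0.254), after quantile normalization (0.0535) and with library medians set equal (0.0733).

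KPNA6 had a mean of 211 ± 50.9 scaled counts in GV oocytes (SD, n = 3), 563 ± 402 at the 8-cell stage, 888 ± 207 at the 16-cell stage and 573 ± 186 in blastocysts. The 8-cell libraries were spread from 313.8 to 1028, with replicate 3 highest, and overlapped with the 16-cell ones. Its difference from 8-cell to 16-cell, 0.84 ± 0.46 (95% interval -0.11 to 1.8), was not called (limma adjusted p = 0.17). Without 8-cell replicate 3 it was (1.38, limma adjusted p = 0.0224), and without 8-cell replicate 2 it was not (0.54, 0.468). KPNA5 had 118 ± 5.5 scaled counts in GV oocytes, 172 ± 73.2 in MII, 156 ± 20.2 at 4 cells, 117 ± 74.7 at 8 cells, 60.2 ± 8.31 at 16 cells and 43.7 ± 22.2 in blastocysts. Every 16-cell and blastocyst library of KPNA5 lay below every oocyte and 4-cell library, whereas 8-cell replicate 3, at 34.12, lay among the late ones.

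KPNB1, the carrier shared by all importin alphas, had no change called up to the 16-cell stage and rose in the blastocyst. It had 331.8 to 642.2 scaled counts in GV oocytes, 498.8 to 623.1 in MII, 625 to 900.1 at the 4-cell stage and 561.8 to 704.8 at the 8-cell stage. The 16-cell libraries had 356.2, 976.9 and 1203, and the blastocysts 2932, 2976 and 4465, all above every earlier library. The rise from 16-cell to blastocyst was 2.17 ± 0.38 (limma adjusted p = 0.00017, 4.09-fold). The 16-cell libraries were the most spread of any stage, and here too replicates 1 and 3 lay at opposite ends. Replicate 3 had the highest KPNB1, the lowest KPNA7 and, at 4957, the lowest sum of oocyte markers of the 16-cell libraries. Replicate 1 had the lowest KPNB1, the highest KPNA7 and an oocyte marker sum of 12620. The part of the marker levels in these values was not tested.

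Counted by stage, calls among the 8 genes began at the 8-cell stage. No member was called between MII and GV or between 4-cell and MII, where 0.712% and 0.794% of all genes tested were, and none had an unadjusted p under 0.05 in limma or was called by voom on the recovered reads. Between 4-cell and 8-cell, 2 of 8 rose, KPNA3 and KPNA4, and none fell, where 8.64% of all genes rose and 12.8% rose or fell. Between 8-cell and 16-cell, KPNA1 rose and KPNA2 and KPNA7 fell, against 31.1% of all genes, so 3 of 8 is near the background. From 16-cell to blastocyst, KPNA2 and KPNB1 rose and KPNA3 and KPNA7 fell, against 31.3%. The median difference of the 8 members was 0.4, 0.08, 0.29, 0.2 and -0.3 in the successive comparisons, and that of all genes 0, 0, 0, 0 and 0.18. Same-numbered libraries of the 16-cell and blastocyst stages had weakly correlated deviations from their stage means (0.113, 0.134 and 0.108 over all genes). In a fit of those 6 libraries with the replicate number as a block, KPNA7 kept its call (limma adjusted p = 0.0446) and KPNB1, KPNA2 and KPNA3 did not (0.0573, 0.0778 and 0.0757), while a block in the fit of all 18 libraries changed no call of this comparison.

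**Figure D2:**
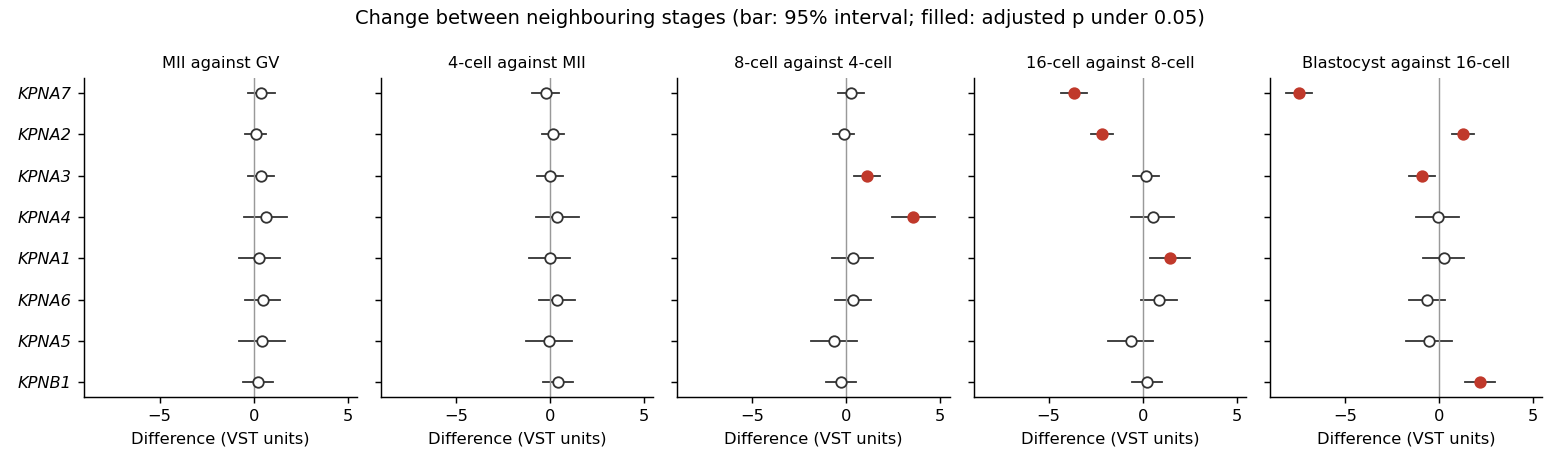
Differences between neighbouring stages (variance-stabilised units, log2-like, with 95% intervals as bars) for the 8 genes, filled where the limma adjusted p was under 0.05. The largest are the falls of KPNA7, by 3.65 at the 16-cell stage and by 7.45 in the blastocyst, and the rise of KPNA4, by 3.57 at the 8-cell stage.

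Across the wider span from 4-cell to 16-cell, 6 of the 8 members were called, against 43.4% of all genes. KPNA4 (16.5-fold, difference 4.1 ± 0.55, limma adjusted p = 4.8e-06), KPNA1 (3.89-fold, adjusted p = 0.0085), KPNA3 (2.51-fold, adjusted p = 0.0039) and KPNA6 (2.34-fold, adjusted p = 0.037) rose. KPNA7 (9.35-fold lower, limma adjusted p = 1.3e-07) and KPNA2 (4.73-fold lower, adjusted p = 1e-06) fell. KPNA5 missed the threshold at -1.31 ± 0.58 (limma adjusted p = 0.076), and passed it with only the libraries of both stages (0.0164), after quantile normalization (0.0473) or with library medians set equal (0.0331). The call of KPNA1 was lost without 16-cell replicate 1 (limma adjusted p = 0.0538), and that of KPNA6 without 4-cell replicate 1 or 3 or 16-cell replicate 2 or 3 (0.128, 0.0722, 0.0953 and 0.0991). Setting library medians equal lost KPNA3 and KPNA6 (limma adjusted p = 0.0957 and 0.12). KPNA6 was also lost after quantile normalization (0.0765) or without the variance trend (0.0641).

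Between the ends of the series, blastocyst and GV oocyte, 7 of 8 members were called, against 45.9% of all genes, and 4 without GV replicate 3. KPNA4 (39.9-fold, difference 5.08 ± 0.55, limma adjusted p = 2.3e-07), KPNB1 (6.97-fold, adjusted p = 4.2e-06), KPNA1 (4.98-fold, adjusted p = 0.0011) and KPNA6 (2.72-fold, adjusted p = 0.017) rose. Besides KPNA7, KPNA2 (1.68-fold lower, limma adjusted p = 0.027) and KPNA5 (2.69-fold lower, adjusted p = 0.048) fell, and KPNA3 was not called (0.72 ± 0.33, adjusted p = 0.085). The calls of KPNA2 and KPNA5 were lost without any single GV library (limma adjusted p = 0.0522 to 0.102), with further losses without Blastocyst replicate 2 or 3 for KPNA2 (0.0997 and 0.0584) and without Blastocyst replicate 1 or 2 for KPNA5 (0.0894 and 0.164). KPNA6 was lost without GV replicate 3 or Blastocyst replicate 2 or 3 (limma adjusted p = 0.0621, 0.0537 and 0.0755), and KPNA3 was gained without Blastocyst replicate 2 (0.0394). Over all 6 stages each of the 8 members differed in the limma F test, as did 67% of all genes, with adjusted p-values from 5.4e-15 (KPNA7) to 0.037 (KPNA5).

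The make-up of the family's reads differed between stages in the same way. KPNA7 took 74.9 ± 1.2% of the reads of the 7 importin alpha genes in GV oocytes (SD, n = 3), 77.7 ± 5.75% in MII, 73.3 ± 3.13% in 4-cell and 73.7 ± 4.03% in 8-cell embryos. Among the 8-cell libraries, replicate 2 had the highest share, 78.33% against 70.78% and 72.09%. In 16-cell embryos KPNA7 took 31.88%, 35.46% and 17.48%, and in blastocysts 0.1087%, 0.2212% and 0.1191%. Reads were not divided by gene length, so these shares follow each gene from stage to stage and do not rank the genes by level. The share differed by 0.47 percentage points between 4-cell and 8-cell (exact permutation test, two-sided, p = 0.9) and by -45.46 points between 8-cell and 16-cell (exact permutation p = 0.1, the smallest that 3 against 3 libraries allow). The mean share of KPNA2 was 16.6% to 21.7% from GV to 16-cell, 17.0 ± 1.89% at that last stage, and 52.3% in blastocysts. At the 16-cell stage KPNA3 took 27.9%, KPNA6 10.4%, KPNA4 8.85% and KPNA1 6.9%.

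**Figure D3:**
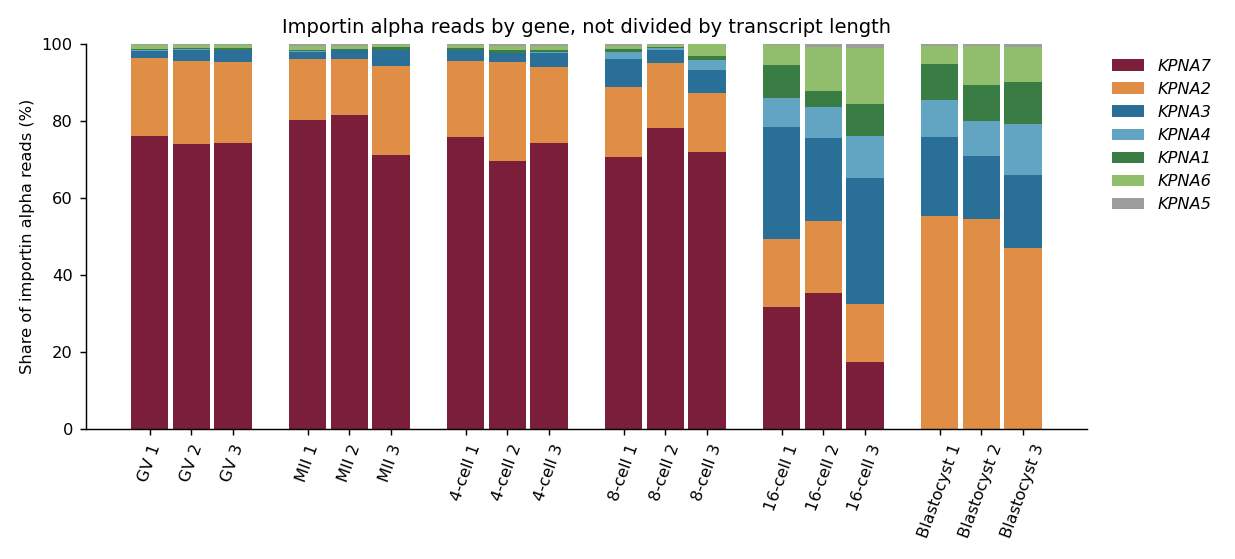
Share of each of the 7 genes in the reads of the importin alpha family (percent, 1 stacked bar for each of the 18 libraries, not divided by gene length). On average KPNA7 holds 73.3% to 77.7% through the 8-cell stage, 28.3% at the 16-cell stage and 0.15% in the blastocyst, where KPNA2 holds 52.3%.

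The sum of the 7 importin alpha genes was lower at the 16-cell stage and in blastocysts than before. It was 30830 ± 630 scaled counts in GV oocytes, 43430 ± 10500 at the 8-cell stage, 9579 ± 3210 at the 16-cell stage and 7348 ± 1220 in blastocysts. In scaled counts, what the other members gained at the 16-cell stage was thus less than what KPNA7 and KPNA2 lost.

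Ratios within a library do not depend on its scaling. The log2 ratio of KPNA7 to KPNA2 reads was 1.85 in GV, 2.16 in MII, 1.77 in 4-cell and 2.15 in 8-cell libraries on average, 0.67 in 16-cell libraries and -8.52 in blastocysts. It changed by 0.38 from 4-cell to 8-cell and by -1.48 from 8-cell to 16-cell (exact permutation p = 0.1 in each, the smallest possible). Every 16-cell ratio was below every 8-cell ratio and above every blastocyst ratio. The log2 ratio of KPNA7 to KPNB1 was between 5.11 and 5.77 on average up to the 8-cell stage and -8.36 in blastocysts. The 16-cell libraries stood between, at 3.56, 1.66 and 0.0022, and were the most spread.

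**Figure D4:**
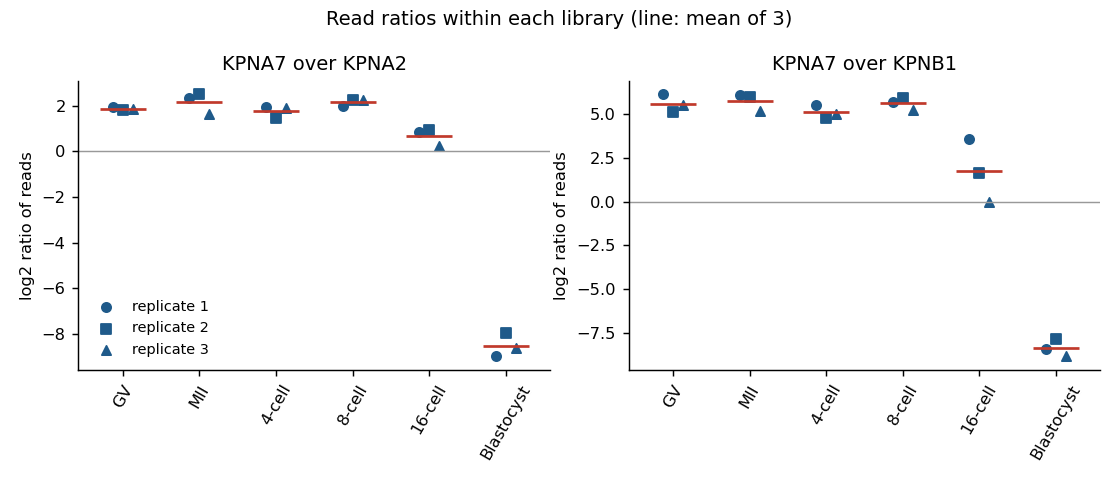
Log2 ratio of reads of KPNA7 to KPNA2 (left) and to KPNB1 (right) in each library by stage, with the mean of 3 libraries as a line. Both ratios are lower at the 16-cell stage than before and are at -8.52 and -8.36 on average in the blastocyst.

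Across the 18 libraries, KPNA7 values ran against those of KPNB1 (Pearson r = -0.9) and KPNA1 (-0.74) and with those of KPNA5 (0.71) and KPNA2 (0.5). With KPNA4, KPNA6 and KPNA3 the r of KPNA7 was -0.6, -0.4 and -0.14. From 4-cell to 16-cell, however, where KPNA7 fell, KPNB1 differed by only -0.03 ± 0.38 and was not called. KPNA4 ran with KPNA1 (0.79) and KPNA3 (0.76). These correlations describe 6 stages with 3 libraries each, which share their stage, and are not independent tests. Among 15097 other genes with a symbol, the values most like KPNA7 were those of DUSP10 (r = 0.996), ARMC2 (0.995), SAXO1 (0.994), PHYHIPL (0.994) and PDE3A (0.993). In total 547 genes, or 3.62%, had r over 0.9 with KPNA7. Fewer genes were that close to KPNA2 (73, led by TMEM14C at 0.972, TOMM70A at 0.971 and RAD18 at 0.957) or to KPNB1 (46, led by FAM91A1 at 0.94, LCAT at 0.937 and MYH9 at 0.935).

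**Figure D5:**
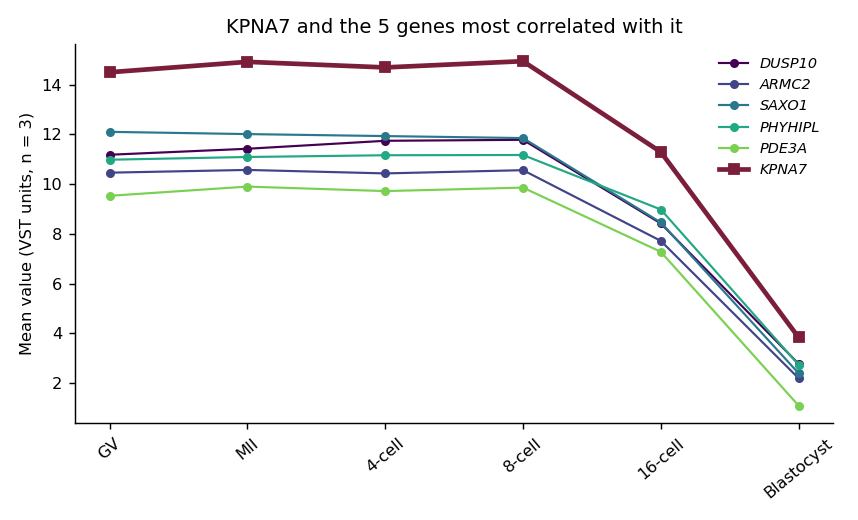
Stage means (variance-stabilised units, n = 3) of KPNA7 and the 5 genes whose values were most correlated with it over 18 libraries. All have similar means up to the 8-cell stage and lower ones at the 16-cell stage, with PDE3A at 1.1 in the blastocyst, the value of 0 reads.

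The partners of the importin alphas in transport were read from 32 further genes, namely other importins, the Ran cycle, importin alpha export and cargo release, exportins, and spindle proteins known to be bound by importins. IPO5, RCC1 and RANGAP1 were not analysed here. None of the 32 was called by limma between MII and GV or between 4-cell and MII, with 3 at an unadjusted p under 0.05 in each and 0 called by voom. With array weights limma called 1 fall in the first of these comparisons and 3 in the second, where it also called 1 with only the libraries of both stages. From 4-cell to 16-cell 15 rose and 4 fell, against 43.4% of all genes that rose or fell, with a median difference of 0.83 against 0 for all genes. In the steps between, 5 rose and 3 fell from 4-cell to 8-cell (12.8% of all genes), and 12 rose and 3 fell from 8-cell to 16-cell (31.1% of all genes). From 16-cell to blastocyst 5 rose and 6 fell, a share of the 32 near the 31.3% of all genes. In the fit of those 6 libraries with the replicate block 2 rose and 2 fell, and CSE1L was among the calls lost (limma adjusted p = 0.087). The 5 rises from 4-cell to 8-cell were 3 without 4-cell replicate 2, 9 without 8-cell replicate 2 and 2 without 8-cell replicate 3. With only the libraries of both stages they were 1. The 3 falls there were 1 without 4-cell replicate 2, 4-cell replicate 3 or 8-cell replicate 3. They were also 1 with only the libraries of both stages, without the variance trend or with array weights. The 3 falls at the 16-cell stage were 1 without 8-cell replicate 2 or 16-cell replicate 1, and the 5 rises in the blastocyst were 3 without 16-cell replicate 1 or Blastocyst replicate 1.

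Among the other importins 7 of 11 rose from 4-cell to 16-cell and none fell, where 21.7% of all genes rose. IPO7, an importin for ribosomal proteins, went from 60.4 ± 18.8 scaled counts at the 4-cell stage to 1034 ± 738 at the 8-cell stage (SD, n = 3; 3.68 ± 0.56, limma adjusted p = 7.8e-05), the same step as KPNA4. Without 8-cell replicate 2 the difference of IPO7 was 4.47 (limma adjusted p = 2.23e-06). The call of IPO7 was lost with only the libraries of both stages (limma adjusted p = 0.0623). The exportin XPO1, which carries proteins with leucine-rich export signals, went from 829 ± 248 to 3604 ± 1000 at that step (2.11 ± 0.38, limma adjusted p = 0.00057). XPOT, the exporter of transfer RNA, fell there and rose afterwards, with 973 ± 54.6 in 4-cell, 369 ± 59.4 in 8-cell and 815 ± 124 in 16-cell embryos and 2313 ± 467 in blastocysts (limma adjusted p = 0.0019, 0.0051 and 0.00045 in turn).

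CSE1L, which returns importin alphas to the cytoplasm, dipped at the 8-cell stage. Its libraries had 2654, 3151 and 3905 scaled counts at the 4-cell stage, 2201, 1445 and 1234 at the 8-cell stage, 4362, 3512 and 4363 at the 16-cell stage and 9275, 4962 and 7626 in blastocysts. The 8-cell libraries lay below all others of these stages. The rise from 8-cell to 16-cell was called (1.36, limma adjusted p = 0.0012). The fall before it (-1.02, limma adjusted p = 0.02) was lost without 4-cell replicate 2 or 3 or 8-cell replicate 3 (0.0538 to 0.0975). The rise after it (0.8, limma adjusted p = 0.037) was lost without 16-cell replicate 1 or 2 or Blastocyst replicate 1 or 3 (0.0532 to 0.169). With only the libraries of both stages none of these CSE1L calls was kept (limma adjusted p = 0.116, 0.0572 and 0.136 in order of stage).

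RANBP2, a pore protein that binds Ran, rose from 2550 ± 1502 in 8-cell to 11161 ± 3625 in 16-cell embryos (2.29 ± 0.44, limma adjusted p = 0.00058), by 1.69 without 8-cell replicate 2 (limma adjusted p = 0.00472). RANBP1, a cofactor in GTP hydrolysis by Ran, had 745 ± 306 scaled counts in GV oocytes, from which blastocysts were not called different. It fell from 281 ± 56.9 in 8-cell to 109 ± 59.5 in 16-cell embryos, a call lost without 8-cell replicate 2 (limma adjusted p = 0.0543). RANBP1 then rose from the 16-cell stage to 928 ± 246 in blastocysts (3.15 ± 0.43, limma adjusted p = 1.2e-05). NUP153, of the nuclear basket of the pore, fell from 7198 ± 646 to 2572 ± 588 at that step (-1.5 ± 0.25, limma adjusted p = 9.8e-05). RAN itself had 0 reads in every GV library and 42 to 54 reads in blastocyst libraries, too few for a fold, and it is uncertain where reads were shared with close copies of the gene. NUSAP1, a spindle protein that importins bind, fell at the 16-cell stage like KPNA7 and KPNA2, from 2674 ± 1036 to 478 ± 167 (-2.46 ± 0.35, limma adjusted p = 3.4e-05). It was alone in this among the 6 listed spindle genes, of which 5 had a positive difference there (median of the 6, 0.42). TPX2 was called as a rise, a call lost in 6 of 10 other settings.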

How the data were processed

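The authors deposited 1 table of variance-stabilised, log2-like values for 21668 genes in 18 libraries. Build UMD3.1 and the tools DESeq, HTSeq, TopHat2 2.0.3 and CASAVA 1.6 are listed, without their roles, per the submitters' processing notes. Per the labels' protocols, cDNA was amplified after mixed random and poly(A) priming and strand was not marked, so overlapping genes cannot be told apart. How reads that match several places were treated is not given in the sources used here, so reads may be shared between close relatives such as KPNA2 and its copies.

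The lowest value, 1.097, stood for 0 reads. Inverting the transformation gave whole reads for 100% of 390024 values (tolerance 1e-06), and the size factors differed from median-of-ratios factors by at most 1.2e-14. A read was worth 0.563 to 2.82 scaled counts.

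For the 17138 genes detected (1 read or more) in 3 or more libraries, the deposited values were fitted by stage over all 18 libraries in limma 3.58.1 (R 4.3.3, empirical Bayes with trend). Tests were two-sided at an adjusted p of 0.05, and the procedure was tested on simulated data. Shares and ratios used exact permutation tests. The family share was planned per coding length, but no lengths were used here, so reads were not divided by length. Python 3.11.15, pandas 2.3.3, scipy 1.17.1 and matplotlib 3.10.9 served for tables and plots.

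Besides the 8 members, at most 3 genes of each list of transport genes were named, those with the smallest p between neighbouring stages, plus CSE1L and RAN. Likeness was Pearson's r over 18 libraries among genes with a symbol. Symbols of 2564 of 5890 genes listed by locus number came from RefSeq (ARS-UCD2.0, names only), SAXO1 and FAM91A1 among them. The members and lists were chosen with earlier results of these data known. Deviations from stage means of same-numbered libraries correlated over all genes at 0.113, 0.134 and 0.108 between 16-cell and blastocyst, and a replicate block was run there. The labels give only a number, and differently numbered libraries were not compared, so pairing was not tested.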

Additional observations from a re-analysis of the deposited data

How the results depend on the processing

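Of 56 differences of the members, 22 were called, and 11 of these kept their call in every setting run, namely KPNA7 in the 4 comparisons in which it was called, KPNA2 at 16-cell against 8-cell and 4-cell, KPNA4 at 8-cell and 16-cell against 4-cell, and KPNA1, KPNA4 and KPNB1 in blastocyst against GV. No called difference changed sign. The members called at 8-cell against 4-cell were 2, and 1 with only the libraries of both stages, without the variance trend or with library medians set equal, and 1 to 2 without 1 library. At blastocyst against 16-cell they were 4, then 2 with only the libraries of both stages, 1 with these and a replicate block (chosen after seeing the data), and 3 to 4 without 1 library. They were 3 at 16-cell against 8-cell (2 to 4 without 1 library) and 7 at blastocyst against GV (4 to 6). In the fit of all 18 libraries the replicate block lost KPNA5 at blastocyst against GV (adjusted p = 0.0513), leaving 6, and changed no other call of a member. Outside blastocyst against 16-cell the deviations of same-numbered libraries correlated at -0.108 to 0.202, with 0.148, 0.02 and 0.202 at MII against GV. Differently numbered libraries were not compared, so whether the numbers pair libraries was not tested in any comparison. Setting library medians equal moved the median of all genes to between -0.36 (16-cell against 4-cell) and 0.31 (MII against GV). By voom on the recovered reads it was 0.33 at 16-cell against 8-cell, with 2665 genes up and 2355 down. Counts of all genes called also moved, from 17 to between 4 and 255 up at MII against GV, and at 4-cell against MII from 11 to between 3 and 272 up and from 125 to between 55 and 731 down. With only the libraries of both stages, 345 genes rose and 468 fell at 16-cell against 8-cell, against 2537 and 2800, and of the 32 transport genes 0 rose and 1 fell. Without KPNA2 the KPNA7 share was 94.6%, 94.4%, 93.5%, 88.4%, 34.3% and 0.318% from GV to blastocyst. The share per coding length was not run. Few reads limit what can be said of KPNA7 in blastocysts (10 to 13 reads a library) and of RAN throughout.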
